A study of Homo sapiens with 26 samples.

Results

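The 36 nuclear genes described here encode proteins that replicate mitochondrial DNA (mtDNA), transcribe it, cut and tail its RNA, modify its tRNA and rRNA or degrade its transcripts. They were chosen by name and function, not by a measured value, though with earlier results of these data known. The RNA-seq files list 60663 genes, among them all 36, and the ribosome profiling files list 58849 entries, of which 31 are members with an entry of their own. PRORP, PTCD1, MTPAP, REXO2 and MRM2 are listed there only in entries joined with overlapping genes, so their footprints were not analysed here. The question was which of these genes are translated at the outer mitochondrial membrane (OMM) beyond their level in the whole lysate, and which, like SUPV3L1, are not.

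All libraries came from HEK293T, a human embryonic kidney line whose own RPL29, part of the large subunit of the ribosome, bears an Avi tag. LOV-BirA, a biotin ligase switched on by blue light, biotinylates tagged ribosomes near it, and streptavidin then recovers them (LOCL-TL). For ribosome profiling the ligase was fused to Sec61β at the ER, fused with GFP to the transmembrane domain of OMP25 at the OMM (libraries named mito here), or untargeted in the cytosol, and the OMM fusion was expressed from the EF1α promoter after lentiviral transduction. Each of the 3 locations had 2 replicates with cycloheximide (CHX), which arrests ribosomes on their mRNA, and each lysate gave a total input and a pulldown, 12 libraries in all. RNA-seq of 14 libraries used the OMM fusion in wild-type cells carrying a negative control gRNA, in AKAP1 null cells and in LARP4 null cells, 2 replicates each, and in cells without CHX, 1 replicate with a shorter light pulse. Labels of the pair without CHX name no genotype or gRNA, and its cells were taken as wild type. AKAP1 is an OMM protein that binds RNA and LARP4 is an RNA-binding protein, each null genotype is 1 monoclonal line made with Cas9, and CHX treatment of the null lines was taken from the general protocol.

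Footprints in coding sequences numbered from 1025114 in mito pulldown replicate 1 to 19539527 in ER pulldown replicate 1, and RNA-seq counts from 38347615 to 100840544 per library. The 2 mito pulldowns, with 1025114 and 2506515, were the shallowest, so values at the OMM have the widest counting error. Among total inputs, cytosol replicate 2 stood apart: its log2 levels correlated with the median of the other total inputs at r = 0.908 across 6860 genes, against 0.977 to 0.992 for the rest, and it held the lowest level for 16 of 31 members. The total input without CHX correlated at 0.968 across 12821 genes, against 0.990 to 0.996 for the other RNA-seq total inputs. Of markers expected in these cells, VIM had a median of 96.3 and KRT18 of 16.5 CPM per kilobase (CPM are counts scaled to the library total) in the 7 RNA-seq total inputs, while KRT8 (1.09) and PAX2 (1.06) were low. The leukocyte gene PTPRC and the islet gene INS had medians of 0, CDH5 of endothelium 0.00163, ALB of hepatocytes 0.0251 and COL1A1 of fibroblasts 1.33.

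Human mtDNA is copied by POLG with its partner POLG2, the helicase TWNK and the single-strand binding protein SSBP1, and is transcribed by POLRMT with TFAM and TFB2M. The long transcripts are cut at their tRNAs, by RNase P (TRMT10C, HSD17B10 and PRORP) at one end and by ELAC2 at the other, then stabilised by LRPPRC and SLIRP, tailed by MTPAP and degraded by SUPV3L1 with PNPT1. All of these proteins are made by cytosolic ribosomes and imported, most of them with an N-terminal presequence rich in arginine and poor in acidic residues.

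The first 30 bases of the coding sequence of 11 members are shown because the presequence is made first, and they are the members at both ends of the enrichment order besides SUPV3L1. Sequences are from GENCODE 44 transcripts on GRCh38, written 5′ to 3′ on the coding strand, and capitals mark arginine codons (CGN, AGA and AGG). The first 7 genes had a log2 OMM enrichment of footprints above 1 that passed the test, and the last 4 are SUPV3L1 and the 3 members with the lowest values.
METTL17: atggcggcggcactgaagtgtctactgaca
PTCD3: atggcggttgtatctgctgttCGCtggctg
ELAC2: atgtgggcgctttgctcgctgctgCGGtcc
POLRMT: atgtcggcactttgctggggcCGCggagcg
TFB2M: atgtggatcccagtggtcgggcttcctCGG
SSBP1: atgtttCGAAGAcctgtattacaggtactt
SLIRP: atggcggcctcagcagcgAGAggtgctgcg
SUPV3L1: atgtccttctccCGTgccctattgtgggct
LRPPRC: atggcagccctgctgAGAtccgcgCGTtgg
MTERF1: atgcagagcctttccttaggacaaacaagc
POLG2: atgCGCtctCGTgtagccgtcAGGgcctgc

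The window lies in exon 1 for 9 of these genes, at chr14:20990003-20990032 (+ strand) for METTL17, chr2:86106248-86106277 (+ strand) for PTCD3, chr17:13017918-13017947 (- strand) for ELAC2, chr19:633483-633512 (- strand) for POLRMT, chr1:246566109-246566138 (- strand) for TFB2M, chr14:77708112-77708141 (+ strand) for SLIRP, chr10:69180292-69180321 (+ strand) for SUPV3L1, chr2:43995918-43995947 (- strand) for LRPPRC and chr17:64496939-64496968 (- strand) for POLG2. In SSBP1 (chr7:141739167-141742174 (+ strand)) and MTERF1 (chr7:91874764-91880083 (- strand)) it runs over the junction of exons 2 and 3. Over the first 30 codons the members held 1 to 7 arginine codons with a median of 5, against a median of 2 over 18857 coding genes. At least 4 arginine codons were present in 24 of 36 members and in 15.5% of coding genes. Acidic codons had a median of 1 in the members and 3 in coding genes, and 14 members had none, against 12.6% of coding genes. Of the genes shown, PTCD3, ELAC2, SSBP1, SLIRP, SUPV3L1, LRPPRC and POLG2 had 5 arginine codons among the first 30, POLRMT and TFB2M had 4, METTL17 had 2 and MTERF1 had 1.

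In total input the members covered a wide range of footprint density, given as RPKM, footprints scaled to coding length and library size. SSBP1 stood highest, with a median of 1298 RPKM over the 6 total inputs (lowest 843, highest 1379.8), followed by HSD17B10 (409), SLIRP (399.9), TFAM (116) and TRMT10C (103). The median of the genes tested at the OMM was 26.5 RPKM. The ranges of HSD17B10 (250.4 to 475) and SLIRP (254 to 463) overlapped, so their order was not resolved, and neither was that of TFAM (111 to 128) and TRMT10C (67.9 to 136). The mtDNA polymerase and RNA polymerase were low, with 20.2 RPKM for POLG, 9.44 for POLG2, 9.73 for POLRMT and 6.99 for the helicase TWNK. NSUN4 (2.13), MRM1 (3.68), MTERF2 (3.74), TOP1MT (6.74) and MTO1 (17.5) had too few footprints for the test at the OMM, and PTCD2, of whose coding length 8.42% is counted, was listed at a median of 0. Footprint density reflects both the amount of mRNA and its translation, and footprints per mRNA were not tested. In wild-type total inputs SSBP1 mRNA was at 45.7 and 49.1 CPM per kilobase and TRMT10C mRNA at 46.2 and 62.5. Their footprint medians were 1298 and 103 RPKM. In these bulk lysates fewer cells that express a gene and lower expression per cell cannot be told apart.

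**Figure D1:**
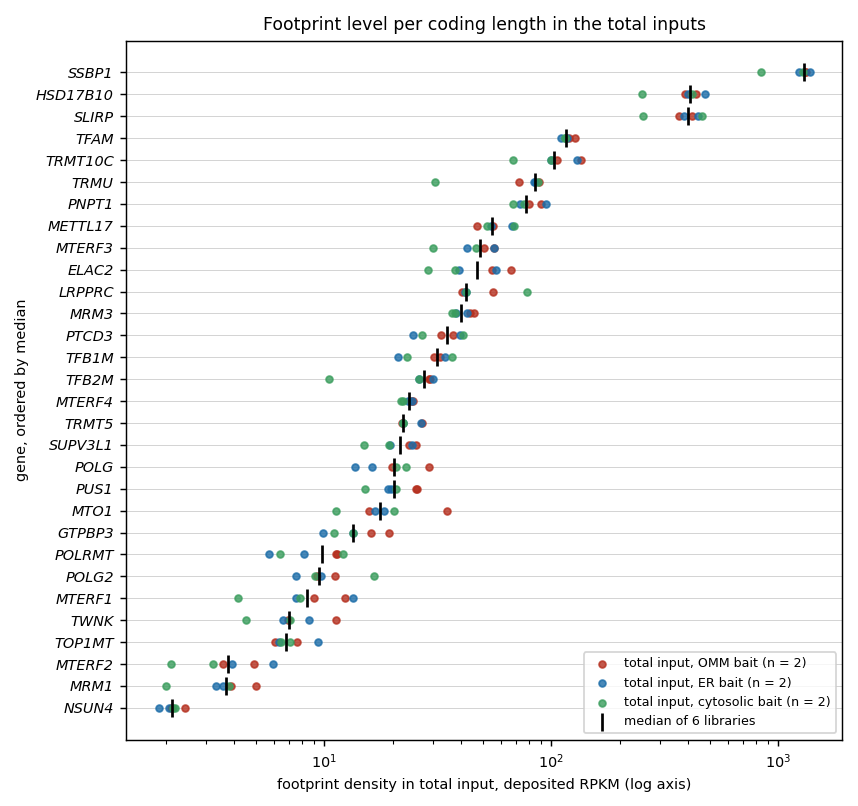
Footprint density in total input (deposited RPKM, log axis) of the 30 members with a median above 0, 2 libraries for each of the 3 baits (coloured points) and the median of all 6 (black tick). SSBP1, HSD17B10 and SLIRP lie to the right of all other members, while NSUN4 has the lowest median.

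At the OMM the members formed a graded range, from strong enrichment to values below 0. Of 25 members with at least 64 footprints in both mito total inputs, 10 were higher in the pulldown, 2 were lower and 13 did not pass the test. METTL17, PTCD3, ELAC2 and POLRMT rose 4.47-fold to 7.14-fold, SSBP1, SLIRP and TFB2M 2.04-fold to 2.13-fold, and PNPT1, MRM3 and HSD17B10 1.44-fold to 1.93-fold. SUPV3L1 was not enriched. Among all 6742 genes tested, 17.0% were higher and 45.9% lower, and the median log2 value was -0.38 for all genes and 0.01 for the members. Enrichment here is the log2 ratio of pulldown to total input, scaled by library totals and tested by edgeR's quasi-likelihood test with Benjamini-Hochberg adjustment over all genes. TMM scaling, which sets the typical gene near 0, placed the all-gene median at -0.06, and then 13 members were higher, with MTERF3, TRMT10C and TRMU added, and none lower, against 25.8% and 24.4% of all genes. DESeq2 also called these 3 higher. The 10 higher members kept their call under TMM and with either mito replicate left out. Without pairing of pulldown and total input by lysate, 8 members were higher and 0 lower, against 7.62% and 15.0% of genes. HSD17B10 and TFB2M lost their calls there.

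Among the genes of mitoribosome assembly and rRNA modification, METTL17, a protein needed to assemble the small mitoribosomal subunit, had 27.3 and 23.9 CPM in the total inputs and 179 and 184 CPM in the pulldowns. PTCD3, a pentatricopeptide protein of that subunit, had 105 and 121 CPM in the total inputs and 739.6 and 746 CPM in the pulldowns. For both genes each pulldown exceeded each total input. The fitted log2 enrichment was 2.84 ± 0.15 (SE, adjusted p = 5.2e-11) for METTL17 and 2.72 ± 0.10 (SE, adjusted p = 1.0e-12) for PTCD3. MRM3, a ribose methyltransferase of the large rRNA, was at 0.79 ± 0.13 (SE, adjusted p = 3.6e-05). MTERF3 at 0.21 and the rRNA dimethyltransferase TFB1M at -0.24 did not pass the test, and MTERF4, which works with the methyltransferase NSUN4, was lower at -0.37 ± 0.15 (SE, adjusted p = 0.043), a call lost under TMM scaling, with counts over all exons and with either mito replicate left out.

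Of the enzymes that cut tRNA ends, ELAC2, the endonuclease of the trailing end, had 301 and 254 CPM in the total inputs and 1629 and 1349.6 CPM in the pulldowns. Its fitted value was 2.42 ± 0.09 (SE, adjusted p = 1.0e-12), with per-replicate values of 2.44 and 2.41, and pulldowns and total inputs did not overlap. Its RNase P counterparts differed from it: HSD17B10, which is also a dehydrogenase, was at 0.52 ± 0.09 (SE, adjusted p = 9.2e-05), and the methyltransferase subunit TRMT10C was at 0.01 ± 0.10 (SE, adjusted p = 0.93), with a call only under TMM and DESeq2.

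Within transcription, POLRMT, the RNA polymerase, had 20.8 and 21.2 CPM in the total inputs and 105 and 86.2 CPM in the pulldowns, and TFB2M, the initiation factor that opens the promoter, had 55.0 and 57.2 CPM in the total inputs and 107 and 121 CPM in the pulldowns. Pulldowns of both lay above the total inputs, with fitted values of 2.16 ± 0.21 (SE, adjusted p = 1.6e-07) and 1.03 ± 0.14 (SE, adjusted p = 6.5e-06). TFAM, the protein that packs mtDNA, did not pass the test at -0.17 ± 0.11 (SE, adjusted p = 0.21). MTERF1, which binds mtDNA at a termination site, had 20.4 and 28.7 CPM in the total inputs and 12.2 and 15.0 CPM in the pulldowns and was the lowest member, at -0.89 ± 0.27 (SE, adjusted p = 0.0079). Both of its pulldowns lay below both total inputs, on 12.5 and 37.6 footprints, and the call was lost under TMM scaling and without mito replicate 2.

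Of the 4 replication genes tested, against 17.0% higher and 45.9% lower of all genes, only SSBP1 passed the test. This protein, which coats single-stranded mtDNA, had 1112 and 1153 CPM in the total inputs and 2245 and 2581 CPM in the pulldowns, with no overlap and a fitted value of 1.09 ± 0.09 (SE, adjusted p = 1.8e-08). POLG2, the accessory subunit of the polymerase, had 15.9 and 13.6 CPM in the total inputs and 9.76 and 11.1 CPM in the pulldowns and did not pass the test at -0.43 ± 0.28 (SE, adjusted p = 0.18). Both pulldowns lay below both total inputs, on 10 and 27.8 footprints. TWNK was at -0.002 and POLG at -0.11, neither passing. TOP1MT, the mitochondrial topoisomerase, was below the minimum of 64, and its replicates were at 2.49 and 2.10 on 39.8 and 54.2 footprints in total input.

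Of the 4 RNA stability and decay genes tested, 2 were higher and none was lower, against 17.0% and 45.9% of all genes. SLIRP, which binds LRPPRC and protects mitochondrial mRNA, had 196 and 175 CPM in the total inputs and 420.3 and 365 CPM in the pulldowns and a fitted value of 1.08 ± 0.10 (SE, adjusted p = 7.2e-08). LRPPRC had 39.3 and 29.2 CPM in the total inputs and 31.7 and 20.5 CPM in the pulldowns and was at -0.44 ± 0.23 (SE, adjusted p = 0.10). The pulldowns of SLIRP lay above its total inputs, while one LRPPRC pulldown fell between the LRPPRC total inputs. PNPT1, the exoribonuclease of the degradosome, had 62.8 and 56.6 CPM in the total inputs and 107 and 119.9 CPM in the pulldowns and was at 0.95 ± 0.15 (SE, adjusted p = 3.9e-05). SUPV3L1, the helicase that works with PNPT1, had 119 and 132 CPM in the total inputs and 100.5 and 117 CPM in the pulldowns. Its replicates were at -0.24 and -0.17 and its fitted value was -0.20 ± 0.13 (SE, adjusted p = 0.17), below 0 but above the all-gene median of -0.38. Both pulldowns lay just below both total inputs, a difference that did not pass the test. With library totals the 4 tRNA modification genes that could be tested did not pass: TRMU was at 0.19, PUS1 at -0.02, GTPBP3 at -0.13 and TRMT5 at -0.18.

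The deposited coding counts cover fewer positions than the reference coding sequence for some members: 7.91% of the coding length of LRPPRC, 13.8% of PNPT1, 16.9% of METTL17, 20.4% of POLG and 23.2% of POLRMT, against 100.1% of SUPV3L1. With counts over all exons, 15 of 31 members were higher and 3 lower, against 16.5% and 49.0% of 8440 genes. POLG then rose to 1.30 ± 0.10 (adjusted p = 1.2e-08), PNPT1 to 2.11 ± 0.10 (adjusted p = 9.2e-12) and SLIRP to 1.77 ± 0.09 (adjusted p = 3.3e-11), TOP1MT passed at 1.46 ± 0.13 (adjusted p = 4.8e-08), NSUN4 at 0.92 ± 0.13 (adjusted p = 1.1e-05), GTPBP3 at 0.45 ± 0.10 (adjusted p = 8.8e-04) and MTERF3 at 0.29 ± 0.11 (adjusted p = 0.022). PTCD2 had enough counts to be tested there and did not pass, at 0.34 ± 0.19 (adjusted p = 0.13). Over all exons GTPBP3 was also called higher in the cytosol, at 0.40 ± 0.09 (adjusted p = 0.0093). The difference, OMM minus cytosol, was 0.04 ± 0.14 (adjusted p = 0.80) for GTPBP3 and 0.12 ± 0.14 (adjusted p = 0.47) for MTERF3. METTL17 (3.19 ± 0.10 (adjusted p = 5.5e-14)), POLRMT (2.04 ± 0.18 (adjusted p = 6.0e-08)) and SUPV3L1 (-0.22 ± 0.12 (adjusted p = 0.12)) kept their side, LRPPRC (-0.44 ± 0.09 (adjusted p = 2.8e-04)) and TFAM (-0.27 ± 0.10 (adjusted p = 0.021)) became lower calls, and MTERF1 stayed lower at -0.62 ± 0.19 (adjusted p = 0.0079). The reading for POLG depends on which positions are counted, and exons of POLGARF and FANCI overlap POLG.

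**Figure D2:**
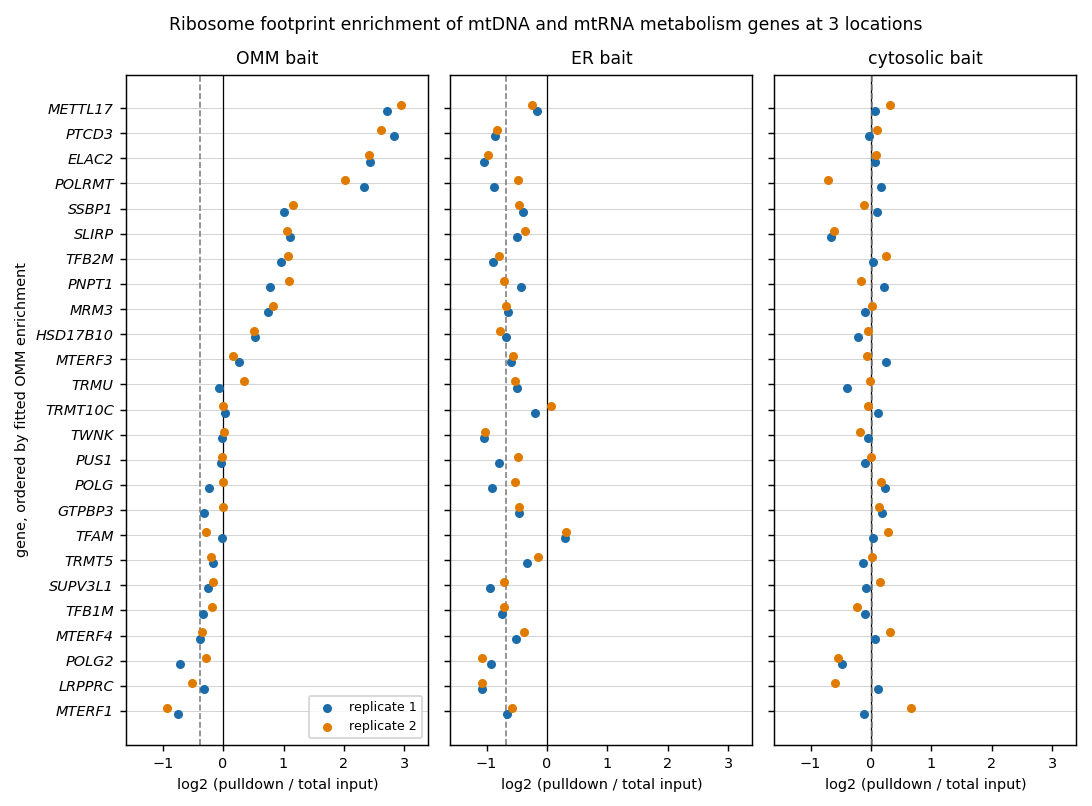
Log2 ratio of pulldown to total input for the 25 members tested at the OMM, at the OMM, ER and cytosolic baits, with 1 point per replicate, zero as a solid line and the median of all genes tested as a dashed line. METTL17, PTCD3, ELAC2 and POLRMT are above 2 at the OMM in both replicates and below 0 at the ER, while SUPV3L1 is below 0 at both.

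At the ER the members were mostly depleted, much as genes in general were. Of 28 members tested, 24 were lower and 1, TFAM, was higher, against 72.0% lower and 19.9% higher among 7390 genes. The median was -0.65 for the members and -0.68 for all genes. TMM scaling moved the all-gene median to -0.03. Then 5 members (METTL17, MTO1, TFAM, TRMT10C and TRMT5) were higher and 3 (ELAC2, LRPPRC and TWNK) lower, against 29.2% and 25.4% of genes. Of values called under either scaling, 13 were below 0 with library totals and above 0 under TMM.

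SUPV3L1 had 114 and 124 CPM in the total inputs and 58.8 and 75.3 CPM in the pulldowns at the ER, with -0.84 ± 0.11 (SE, adjusted p = 1.1e-06). TFAM had 196 and 179.5 CPM in the total inputs and 242 and 224 CPM in the pulldowns, and both pulldowns lay above both total inputs, at 0.31 ± 0.10 (SE, adjusted p = 0.0059). That call was lost without either ER replicate and with counts over all exons (0.16 ± 0.08 (adjusted p = 0.073)). The strongly OMM-enriched genes PTCD3 (-0.85), ELAC2 (-1.01) and POLRMT (-0.69) were lower at the ER, and METTL17 did not pass there (-0.20 ± 0.13 (SE, adjusted p = 0.15)). METTL17 was instead called higher at the ER under TMM (0.45 ± 0.13 (SE, adjusted p = 0.0090)) and DESeq2 (0.41 ± 0.17 (SE, adjusted p = 0.033)). LRPPRC (-1.08), TWNK (-1.03) and POLG2 (-0.98) were lower too. No member passed a log2 ratio of 1.5 in either ER replicate, which 14.7% and 14.5% of genes did.

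With library totals few genes differed between pulldown and total input of the free cytosolic ligase. Of 23 members tested none was higher and 1, SLIRP, was lower, against 2.04% and 5.95% of 7173 genes, and DESeq2 gave the same counts of members. With reads on transcripts as library sizes, chosen after seeing the data, the all-gene median was 0.25, and 8 members were higher and 1 lower, against 33.3% and 3.53% of genes. SLIRP had 237 and 127 CPM in the total inputs and 149 and 83.6 CPM in the pulldowns, and its fitted value was -0.64 ± 0.09 (SE, adjusted p = 1.7e-04). One pulldown lay between the total inputs, so the groups overlapped while the ratio fell in both lysates (-0.67 and -0.61). Over all exons the value was 0.04 ± 0.09 (adjusted p = 0.83). SUPV3L1 had 106 and 80.6 CPM in the total inputs and 100.1 and 89.2 CPM in the pulldowns, at 0.02 ± 0.11 (SE, adjusted p = 0.95). In the cytosol, where total input replicate 2 stands apart, leaving out replicate 1 gave 0 higher and 2 lower members (LRPPRC and SLIRP), against 3.14% and 7.32% of genes, and leaving out replicate 2 also 0 and 2 (SLIRP and TOP1MT), against 3.1% and 5.76%.

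Set against the other locations, the same enriched genes stood out. OMM enrichment exceeded cytosolic enrichment for 10 of 23 members and was below it for 1, MTERF4, against 16.5% and 39.7% of 6482 genes. It exceeded ER enrichment for 17 of 25 members and was below it for 1, TFAM, against 31.0% and 18.5% of 6691 genes. Under TMM these counts were 11 and 0 (24.5% and 20.8% of genes) and 12 and 1 (14.2% and 22.6%). Without cytosol replicate 2 the first comparison gave 11 higher, with TRMU added, and 1 lower, MTERF1 in place of MTERF4, against 16.1% and 39.6% of genes. METTL17 differed by 2.65 ± 0.20 (SE, adjusted p = 1.4e-08) from the cytosol and 3.04 ± 0.20 (SE, adjusted p = 7.1e-10) from the ER, and PTCD3 by 2.69 and 3.56. SUPV3L1 differed from the ER (0.63 ± 0.17 (SE, adjusted p = 0.0041)) but not detectably from the cytosol (-0.22 ± 0.17 (SE, adjusted p = 0.27)), and its ER difference was lost under TMM scaling and without mito replicate 2 or ER replicate 1. TFAM was the only member called with a lower ratio at the OMM than at the ER, by -0.48 ± 0.15 (SE, adjusted p = 0.013), a call lost without mito replicate 2 and without either ER replicate.

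A log2 ratio above 1.5 at the OMM was reached in each replicate by the same 4 of 26 members measured, METTL17, PTCD3, ELAC2 and POLRMT, against 2.38% and 2.37% of genes. The members' per-replicate ratios correlated at r = 0.98 (Spearman 0.92) across 25 genes, which share the libraries and are not independent replicates.

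RNA-seq of mRNA held by OMM-labelled ribosomes gave values for 35 members, all but MRM2, which fell below a mean of 64 counts. In wild-type cells 15 were higher in the pulldown, 8 lower and 12 did not pass, against 20.2% and 45.6% of 13856 genes. The median log2 value was 0.21 for members and -0.28 for all genes. Under TMM, which moved the all-gene median to 0.01, 24 members were higher and 3 (LRPPRC, PTCD2 and PRORP) lower, against 31.0% and 27.8%.

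METTL17 mRNA had 46.5 and 44.1 CPM in the total inputs and 307 and 334 CPM in the pulldowns, and its fitted value was 2.82 ± 0.14 (SE, adjusted p = 6.4e-06). SLIRP mRNA had 100.4 and 97.5 CPM in the total inputs and 436 and 469 CPM in the pulldowns, at 2.19 ± 0.10 (SE, adjusted p = 6.1e-06). SSBP1 mRNA had 228 and 244 CPM in the total inputs and 648 and 722 CPM in the pulldowns, at 1.54 ± 0.11 (SE, adjusted p = 1.9e-05). These 3 genes had no overlap between pulldowns and total inputs, and neither had TFB2M, with 24.8 and 23.1 CPM in the total inputs and 52.8 and 62.0 CPM in the pulldowns, at 1.26 ± 0.17 (SE, adjusted p = 2.9e-04). PTCD1, a pentatricopeptide protein of tRNA and rRNA processing that had no footprint entry of its own, was at 1.33 ± 0.17 (SE, adjusted p = 2.2e-04), TOP1MT at 1.37, MRM3 at 1.43, HSD17B10 at 1.19 and the oligoribonuclease REXO2 at 0.97.

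PTCD3, ELAC2 and POLRMT had lower values by mRNA than by footprints, while METTL17 had 2.82 by mRNA and 2.84 by footprints. PTCD3 mRNA had 126 and 118 CPM in the total inputs and 214 and 231 CPM in the pulldowns, ELAC2 mRNA 115 and 107 CPM in the total inputs and 191 and 204 CPM in the pulldowns and POLRMT mRNA 32.5 and 32.6 CPM in the total inputs and 58.1 and 64.1 CPM in the pulldowns. Pulldowns lay above total inputs in each, with fitted values of 0.87 ± 0.12 (SE, adjusted p = 2.9e-04), 0.84 ± 0.11 (SE, adjusted p = 2.8e-04) and 0.91 ± 0.15 (SE, adjusted p = 8.0e-04). Their footprint values were 2.72, 2.42 and 2.16. PNPT1 mRNA had 93.3 and 83.8 CPM in the total inputs and 88.5 and 108 CPM in the pulldowns, with overlap and 0.15 ± 0.14 (SE, adjusted p = 0.37), against 0.95 by footprints. The reverse held for SLIRP (2.19 by mRNA, 1.08 by footprints and 1.77 by footprints over all exons), SSBP1 (1.54 and 1.09), MRM3 (1.43 and 0.79) and HSD17B10 (1.19 and 0.52). The difference between assays was not tested. Across the 25 members measured in both, r was 0.75 and Spearman's rho 0.86, and across 6736 genes 0.78 and 0.72, as a description of genes that share libraries.

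SUPV3L1 mRNA had 72.1 and 70.5 CPM in the total inputs and 66.9 and 71.4 CPM in the pulldowns, overlapping, with -0.04 ± 0.10 (SE, adjusted p = 0.71). Its value was near 0 where the median gene was at -0.28. LRPPRC mRNA had 451 and 341 CPM in the total inputs and 268 and 171 CPM in the pulldowns, at -0.87 ± 0.09 (SE, adjusted p = 9.2e-05), the lowest fitted value of all members, followed by PTCD2 at -0.83 and PRORP at -0.63. Replicate ratios of LRPPRC (-0.75 and -0.99) and PTCD2 (-0.83 and -0.84) overlapped, so their order was not resolved. LRPPRC pulldowns lay below its total inputs, and so did those of POLG2, with 25.5 and 21.7 CPM in the total inputs and 18.6 and 16.8 CPM in the pulldowns at -0.41 ± 0.11 (SE, adjusted p = 0.011), and MTERF1, with 28.7 and 24.9 CPM in the total inputs and 21.2 and 20.2 CPM in the pulldowns at -0.37 ± 0.13 (SE, adjusted p = 0.036). TFAM (-0.56), MTO1 (-0.47), TRMT5 (-0.40) and POLG2 completed the lower calls with MTERF1. Annotated exons of other genes overlap those of 20 members, among them ELAC2, SSBP1, SLIRP, METTL17, LRPPRC, HSD17B10, PRORP, PTCD1 and POLG. Exons of ATP5MF, ATP5MF-PTCD1 and BUD31 overlap those of PTCD1. Since no strand setting was given in the sources used here, reads of such neighbours could be included.

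**Figure D3:**
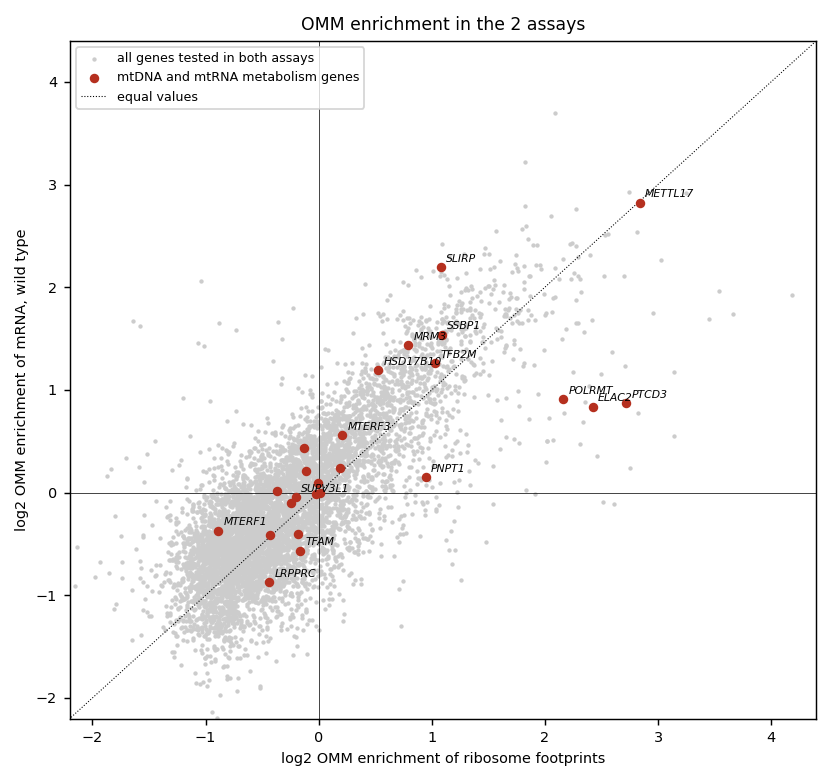
Log2 OMM enrichment of footprints (x axis) against that of mRNA in wild-type cells (y axis) for all genes tested in both assays (grey) and the 25 members measured in both (red), with a dotted line of equal values. PTCD3, ELAC2, POLRMT and PNPT1 lie below the line of equal values, SLIRP, SSBP1, MRM3 and HSD17B10 above it, and METTL17 on it.

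The deleted genes were checked first in the null lines. AKAP1 stood at 21.4 and 22.4 CPM per kilobase in wild-type total inputs and at 6.02 and 3.81 in AKAP1 null total inputs. LARP4 stood at 27.7 and 28.5 in wild-type and 9.78 and 9.12 in LARP4 null total inputs. Both were lower in their own null line without overlap, and neither was at 0.

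In AKAP1 null cells the members moved in both directions. There 25 of 35 members were higher in the OMM pulldown and 1, LRPPRC, lower, against 13.9% and 28.1% of genes (27 and 0 under TMM, against 20.0% and 20.7%). Compared with wild type, enrichment rose for 21 members, fell for 4 and did not pass for 10, against 6.52% higher and 7.96% lower of 13856 genes. The median change was 0.64 for the members and 0.19 for all genes. SLIRP, SSBP1, HSD17B10 and REXO2 fell, and PTCD3, ELAC2, PNPT1, PRORP and MRM3 led the rises. Under TMM, which moved the all-gene median to 0.01, 17 rose and 4 fell, against 2.06% and 10.3%, and LRPPRC, PTCD2, SUPV3L1 and TFAM lost their calls.

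SLIRP mRNA had 115 and 111 CPM in the total inputs and 152 and 147 CPM in the pulldowns in AKAP1 null cells. Both pulldowns lay above both total inputs and SLIRP was still called higher, where wild-type pulldowns had been 4.57-fold higher than total input. Its enrichment changed by -1.79 ± 0.14 (SE, adjusted p = 3.3e-04), and the per-replicate ratios were 2.12 and 2.27 in wild type and 0.40 and 0.41 in the null line, without overlap. SSBP1 mRNA had 212 and 262 CPM in the total inputs and 354 and 359 CPM in the pulldowns, a change of -0.94 ± 0.15 (SE, adjusted p = 0.0056). HSD17B10 changed by -0.77 ± 0.15 (SE, adjusted p = 0.011) and REXO2 by -0.52 ± 0.14 (SE, adjusted p = 0.040). Replicates of the 2 genotypes did not overlap for any of these 4. HSD17B10 and REXO2 lost their calls without pairing by lysate and with any replicate left out. Among the fits that left out a replicate, SSBP1 kept its call only in that without AKAP1 null replicate 1.

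PTCD3 mRNA had 109 and 116 CPM in the total inputs and 503 and 719 CPM in the pulldowns in AKAP1 null cells, a change of 1.55 ± 0.16 (SE, adjusted p = 7.2e-04). ELAC2 mRNA had 100.1 and 103 CPM in the total inputs and 451 and 602 CPM in the pulldowns, a change of 1.53 ± 0.16 (SE, adjusted p = 6.4e-04). Null and wild-type ratios did not overlap for either gene, and total inputs were close to those of wild type. PNPT1 mRNA had 78.4 and 83.1 CPM in the total inputs and 194 and 279 CPM in the pulldowns, and its change of 1.38 ± 0.20 (SE, adjusted p = 0.0028) took it from 0.15, which did not pass, to 1.53. The wild-type value of PNPT1 passed under TMM (0.44), under DESeq2 (0.43) and in the compared libraries alone (0.15). PRORP, the nuclease subunit of RNase P, had 11.4 and 11.6 CPM in the total inputs and 7.03 and 7.86 CPM in the pulldowns in wild type and 11.1 and 11.4 CPM in the total inputs and 17.3 and 20.3 CPM in the pulldowns in AKAP1 null cells. PRORP thus passed from below its total input (-0.63) to above it (0.73), a change of 1.37 ± 0.18 (SE, adjusted p = 0.0017). METTL17 mRNA had 51.6 and 52.4 CPM in the total inputs and 609.6 and 882 CPM in the pulldowns, a change of 0.99 ± 0.18 (SE, adjusted p = 0.0089) from a ratio already the highest in wild type.

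Of the 5 transcription genes measured, POLRMT, TFB2M and TFAM rose, and MTERF1 and MTERF2 did not pass, against 6.52% higher and 7.96% lower of all genes. TFAM lost its call under TMM and with any replicate left out. Of the fits that left out a replicate, POLRMT and TFB2M passed only in that without AKAP1 null replicate 1. POLRMT mRNA had 35.5 and 28.9 CPM in the total inputs and 111 and 145 CPM in the pulldowns, a change of 1.07 ± 0.21 (SE, adjusted p = 0.012), and TFB2M mRNA had 28.8 and 26.7 CPM in the total inputs and 109 and 170.5 CPM in the pulldowns, a change of 1.04 ± 0.24 (SE, adjusted p = 0.023). TRMT10C, near 0 in wild type (-0.0012), changed by 1.02 ± 0.13 (SE, adjusted p = 0.0016), and the poly(A) polymerase MTPAP by 1.15 ± 0.14 (SE, adjusted p = 0.0012). SUPV3L1 mRNA had 78.6 and 75.5 CPM in the total inputs and 99.2 and 116 CPM in the pulldowns, with both pulldowns above both total inputs, unlike wild type, and a change of 0.52 ± 0.14 (SE, adjusted p = 0.038). LRPPRC mRNA had 459 and 451 CPM in the total inputs and 359 and 363 CPM in the pulldowns and changed by 0.54 ± 0.13 (SE, adjusted p = 0.030) while staying below its total input. The calls of SUPV3L1 and LRPPRC were both lost under TMM and DESeq2, without pairing by lysate and with any replicate left out. MTERF1 mRNA had 24.5 and 26.4 CPM in the total inputs and 28.5 and 31.0 CPM in the pulldowns and POLG2 mRNA 26.6 and 23.9 CPM in the total inputs and 21.0 and 24.0 CPM in the pulldowns, with changes of 0.60 ± 0.19 (SE, adjusted p = 0.067) and 0.24 ± 0.16 (SE, adjusted p = 0.30) that did not pass.

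**Figure D4:**
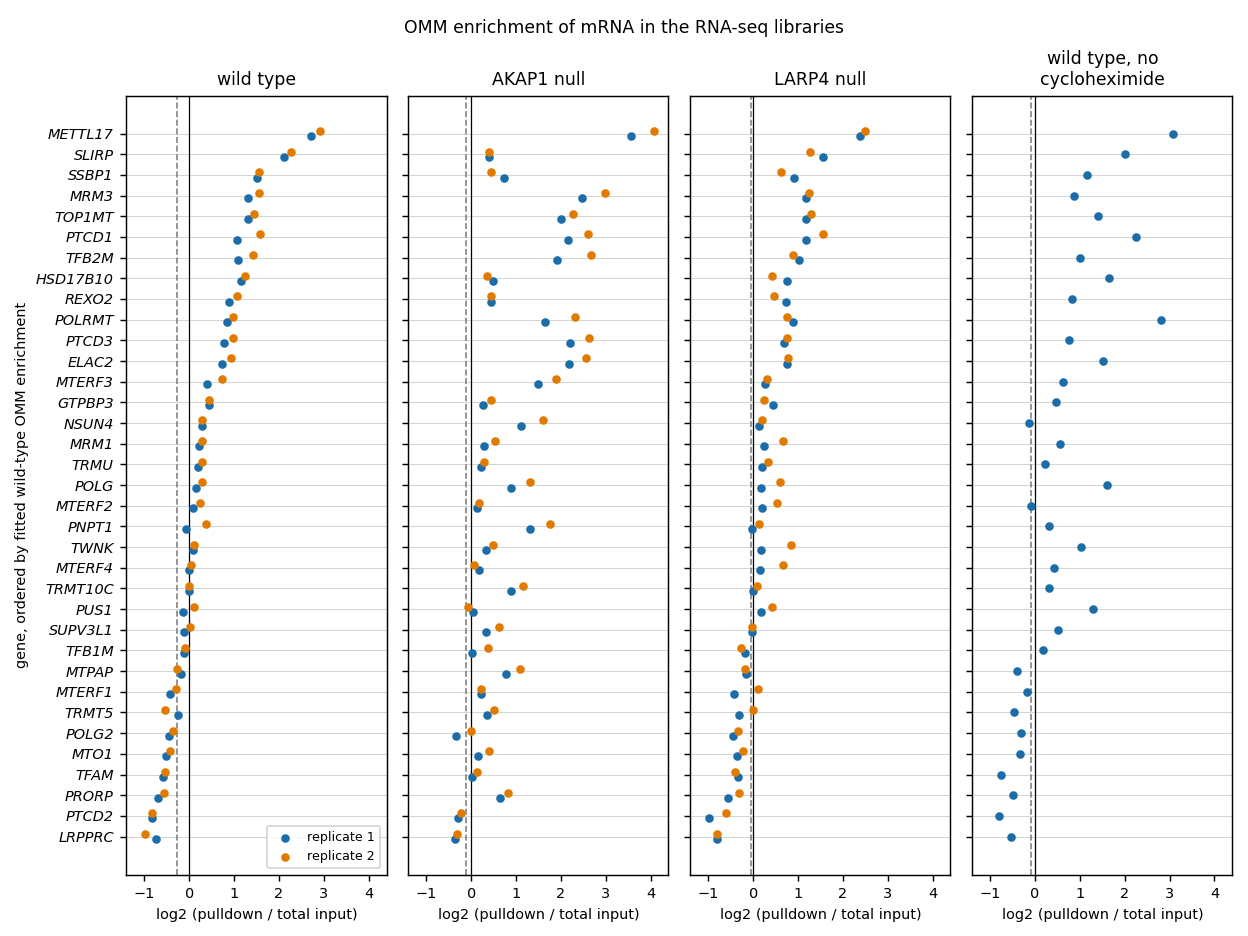
Log2 ratio of pulldown to total input of mRNA for 35 members in wild-type, AKAP1 null and LARP4 null cells with 1 point per replicate and in cells without CHX with 1 point. In each panel zero is a solid line and the median of all genes a dashed line. SLIRP lies at 2.12 and 2.27 in wild type and 0.40 and 0.41 in AKAP1 null cells, while PTCD3 moves from 0.76 and 0.98 to 2.21 and 2.63.

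In AKAP1 null cells the 4 members that fell encode 109 to 261 residues, the 21 that rose 246 to 1394 residues, and the 10 that did not pass 346 to 684. TFAM, with 246 residues, was the shortest that rose (0.64 ± 0.12 (SE, adjusted p = 0.010)). Replicate ratios lay wholly above wild type for 26 members and wholly below for 4, against 53.4% and 22.3% of genes. Leaving out 1 library pair cut the calls: 8 rose and 1 fell without wild-type replicate 1, wild-type replicate 2 or AKAP1 null replicate 2, and 15 rose and 2 fell without AKAP1 null replicate 1. In these 4 fits 0.869% to 1.5% of genes were higher and 2.57% to 3.87% lower. ELAC2, MRM3, MTPAP, PNPT1, PRORP, PTCD3 and TRMT10C rose and SLIRP fell in all 4 of these fits.

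**Figure D5:**
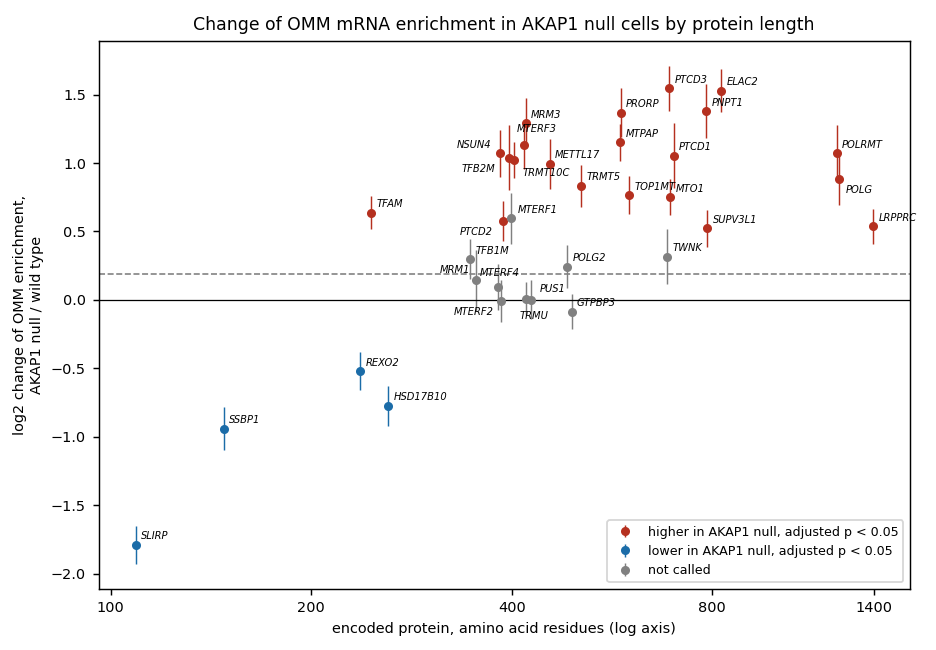
Log2 change of OMM mRNA enrichment in AKAP1 null against wild-type cells (y axis, bars are SE) against the length of the encoded protein (x axis, log scale) for 35 members, with zero as a solid line and the median of all genes as a dashed line. The 4 members that fell are SLIRP, SSBP1, REXO2 and HSD17B10 at the left, and members above 400 residues lie near or above 0.

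LARP4 null cells gave no member a change of enrichment that passed. Of 35 members, 20 were higher in the OMM pulldown of LARP4 null cells and 6 lower, against 22.8% and 30.0% of genes. Against wild type, edgeR called 0 of 13856 genes (0.0%), with 5 of 35 members and 2270 genes at an unadjusted p below 0.05, and DESeq2 called 4 members lower, HSD17B10, REXO2, SLIRP and SSBP1, against 3.63% of genes lower and 0.0289% higher. SLIRP mRNA had 105 and 83.7 CPM in the total inputs and 309 and 203 CPM in the pulldowns, SSBP1 mRNA 159.8 and 160.2 CPM in the total inputs and 302 and 246 CPM in the pulldowns, and their changes were -0.78 ± 0.14 (SE, adjusted p = 0.16) and -0.77 ± 0.15 (SE, adjusted p = 0.17). For both genes the null ratios (1.55 and 1.28, 0.92 and 0.62) lay below those of wild type. HSD17B10 was at -0.59 ± 0.15 (SE, adjusted p = 0.23) and REXO2 at -0.38 ± 0.14 (SE, adjusted p = 0.30).

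The changes of PTCD3 (-0.14 ± 0.16 (SE, adjusted p = 0.60)), ELAC2 (-0.07 ± 0.16 (SE, adjusted p = 0.80)), PNPT1 (-0.10), POLRMT (-0.08) and SUPV3L1 (0.02 ± 0.14 (SE, adjusted p = 0.94)) did not pass. The SD of the difference between replicate ratios was 0.511 in LARP4 null cells across 14116 genes, against 0.253 in wild type and 0.278 in AKAP1 null cells. Over the 35 members the median absolute difference was 0.151 in LARP4 null, 0.129 in wild-type and 0.252 in AKAP1 null cells. Without LARP4 null replicate 1, which leaves 1 LARP4 null lysate assumed to vary like the other groups, 7 members were higher (MTERF1, MTERF2, MTERF4, POLG, PUS1, TRMT5 and TWNK) and the same 4 that DESeq2 called were lower, against 32.7% and 8.27% of genes. Without replicate 2, 0 were higher and 2, SLIRP and SSBP1, lower, against 0.022% and 0.66% of genes. Both genotype comparisons share the wild-type libraries. Ratios lay wholly above wild type for 7 members and wholly below for 12 in LARP4 null cells, against 43.6% and 12.4% of genes.

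Levels in total input gave no called member in either null line. The fit had little power, since AKAP1 itself, at -2.15 ± 0.22 (SE, adjusted p = 0.24), was not called in AKAP1 null total input, while LARP4 was called in LARP4 null total input at -1.56 ± 0.12 (SE, adjusted p = 0.040). In AKAP1 null against wild-type total input edgeR called 0 of 13977 genes (0.0%), with 0 members and 489 genes at an unadjusted p below 0.05, and DESeq2 called 0 members, with 8 genes higher and 7 lower. In LARP4 null cells 1 gene was higher and 1 lower (0.00715% each), no member among them, with 5 of 35 members and 509 of 13977 genes at an unadjusted p below 0.05. DESeq2 called 0 members there, with 14 genes higher and 14 lower. SLIRP differed by 0.20 ± 0.12 (SE, adjusted p = 0.97) and SSBP1 by 0.01 ± 0.14 (SE, adjusted p = 1.0) in AKAP1 null total input. SSBP1 differed by -0.55 ± 0.14 (SE, adjusted p = 0.99) and LRPPRC by 0.52 ± 0.15 (SE, adjusted p = 0.99) in LARP4 null total input.

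Without CHX, where each value is 1 pair of libraries with no test, METTL17 again led the members and LRPPRC and TFAM were again below 0. A log2 ratio above 1 was found for 11 of 36 members and below -1 for none, against 8.42% and 5.94% of 15112 genes, and the median was 0.53 for members and -0.10 for all genes. METTL17 was at 3.08, POLRMT at 2.82, PTCD1 at 2.26, SLIRP at 2.00, HSD17B10 at 1.65, POLG at 1.61 and ELAC2 at 1.52. POLRMT had 17.4 CPM in total input and 122 CPM in the pulldown, and POLG 38.4 and 118. The value without CHX lay above both CHX replicates for 21 members and below both for 10, against 58.7% and 26.6% of genes, whose medians with CHX were -0.27 and -0.30. POLRMT with CHX was at 0.84 and 0.98, POLG at 0.15 and 0.27 and PUS1, a pseudouridine synthase at 1.29 without CHX, at -0.15 and 0.11. SUPV3L1 was at 0.50 without CHX, with 62.7 CPM in total input and 88.9 CPM in the pulldown, LRPPRC at -0.54 and TFAM at -0.76. CHX, light pulse and total input differed together in this pair, whose labels name no genotype or gRNA, and cannot be told apart.

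Other genes of the same pathways also held both enriched and depleted genes, and no test compared them with the members. Of 45 further genes of mtDNA and mtRNA metabolism, 12 of 33 tested were higher and 5 lower at the OMM by footprints, with a median of 0.02, against 17.0% higher and 45.9% lower of all genes. FASTKD2, an RNA-binding protein of mitoribosome assembly, was at 2.34 ± 0.11 (SE), the rRNA chaperone ERAL1 at 1.46 ± 0.12 and C1QBP at 1.09 ± 0.09, while the nuclease-helicase DNA2 (-0.90 ± 0.19), the tRNA methyltransferase NSUN3 (-0.74 ± 0.26) and OSGEPL1 (-0.52 ± 0.21) were lowest of the called genes. Of the mitochondrial aminoacyl-tRNA synthetases 9 of 12 were higher and none lower (median 0.89), and of mitochondrial ribosomal proteins 39 of 63 were higher and 2 lower (median 0.56). In AKAP1 null against wild-type cells 12 of 16 synthetases rose and none fell (median 1.20), while 4 of 77 ribosomal proteins rose and 32 fell (median -0.43). Among the further genes of mtDNA and mtRNA metabolism 13 of 45 rose and 2 fell (median 0.31), against 6.52% and 7.96% of all genes and 21 and 4 of 35 members (median 0.64). The footprints of genes encoded in mtDNA itself, translated inside the organelle on ribosomes without the tag, were at -4.33 to -3.25 at the OMM for the 5 that could be tested.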

How the data were processed

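Ribosome profiling (12 libraries) and RNA-seq (14 libraries) of HEK293T cells were used, grouped by the labels. For ribosome profiling the authors removed rRNA and tRNA reads with Bowtie, mapped what remained on GRCh38 using TopHat, and from unique alignments deposited expected counts per gene region from plastid and RPKM, scaled to reads on annotated transcripts. For RNA-seq the authors aligned with STAR and deposited counts per gene from featureCounts. The strand setting is not given in the sources used here, the deposited FPKM column was not used, and 1 broken entry (ANK2) was left out.

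Tests used edgeR 4.0.16 (quasi-likelihood, two-sided) in R 4.3.3 on counts rounded to whole numbers, with a term per lysate, an effect of pulldown for each location or genotype, and library totals as sizes (TMM for total inputs alone). Genes needed 64 counts in both total inputs of a location, or a mean of 64 in RNA-seq. P-values were adjusted by Benjamini-Hochberg over all genes tested, and called means an adjusted p below 0.05. Levels are CPM, counts scaled to the library total. Per-replicate ratios of RNA-seq had 0.5 counts added, and those of footprints had none added. Lysate replicates paired pulldown with total input by the study's methods, and their deviations correlated at 0.594 to 0.882. Labels do not say whether replicates were separate cultures, though the paper calls those of OMM enrichment biological replicates. P-values therefore measure only the spread between these samples.

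Members, gene lists and tests were chosen with earlier results of these data known. All members are named, those with the largest or lowest OMM enrichment or genotype change in full, and SUPV3L1. Alternatives were TMM, DESeq2 1.42.0, a minimum of 10 counts, no term per lysate, counts over all exons, fewer libraries, each replicate left out and, chosen after seeing the data, reads on transcripts as library sizes. Summaries were made in Python 3.11.15 with pandas 2.3.3, numpy 2.4.6 and scipy 1.17.1, and plots with matplotlib 3.10.9. The tests were also run on simulated counts with a fixed spread and no variation shared within a lysate, unlike these data. Coding starts, lengths and coordinates are from GENCODE 44.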

Additional observations from a re-analysis of the deposited data

Results flagged for a closer look

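The contrast of pulldown against total input differed between the OMM and the cytosol, by the edgeR test of the difference itself at an adjusted p below 0.05, for 11 members, and the values are log2 differences, OMM minus cytosol. It was higher at the OMM for PTCD3 (2.69), METTL17 (2.65), POLRMT (2.39), ELAC2 (2.35), SLIRP (1.72), SSBP1 (1.09), TFB2M (0.92), PNPT1 (0.90), MRM3 (0.84) and HSD17B10 (0.65) and lower for MTERF4 (-0.54).

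Between the OMM and the ER it differed for 18 members. On the log2 scale, OMM minus ER, it was higher at the OMM for PTCD3 (3.56), ELAC2 (3.43), METTL17 (3.04), POLRMT (2.85), TFB2M (1.88), SSBP1 (1.52), SLIRP (1.52), PNPT1 (1.51), MRM3 (1.45), HSD17B10 (1.25), TWNK (1.03), MTERF3 (0.79), TRMU (0.70), POLG (0.64), SUPV3L1 (0.63), PUS1 (0.62) and TFB1M (0.49) and lower for TFAM (-0.48). PTCD3, ELAC2 and METTL17 differed most, and SUPV3L1, which was not enriched at the OMM, was at -0.20 there and at -0.84 at the ER.

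OMM enrichment of mRNA differed between AKAP1 null and wild-type cells for 25 members, by the test of the difference itself. The log2 difference, null minus wild type, was higher for PTCD3 (1.55), ELAC2 (1.53), PNPT1 (1.38), PRORP (1.37), MRM3 (1.29), MTPAP (1.15), MTERF3 (1.13), POLRMT (1.07), NSUN4 (1.07), PTCD1 (1.05), TFB2M (1.04), TRMT10C (1.02), METTL17 (0.99), POLG (0.89), TRMT5 (0.83), TOP1MT (0.77), MTO1 (0.75), TFAM (0.64), PTCD2 (0.58), LRPPRC (0.54) and SUPV3L1 (0.52). It was lower for REXO2 (-0.52), HSD17B10 (-0.77), SSBP1 (-0.94) and SLIRP (-1.79). With 2 replicates a group, no group was large enough for a check of single outlying samples.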

How the results depend on the processing

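As reported, the counts of members called higher and lower were OMM 10 and 2, ER 1 and 24, cytosol 0 and 1, OMM minus cytosol 10 and 1, OMM minus ER 17 and 1, wild-type mRNA 15 and 8, AKAP1 null mRNA 25 and 1, LARP4 null mRNA 20 and 6, AKAP1 null minus wild type 21 and 4, LARP4 null minus wild type 0 and 0. Those that moved by over 1.5 times are given here, and the cause was not tested. TMM scaling gave OMM 0 lower, ER 5 higher and 3 lower, OMM minus cytosol 0 lower, wild-type mRNA 24 higher and 3 lower, AKAP1 null mRNA 0 lower. DESeq2 gave OMM 0 lower, ER 4 higher and 1 lower, OMM minus cytosol 0 lower, OMM minus ER 11 higher, wild-type mRNA 23 higher and 3 lower, AKAP1 null mRNA 0 lower, LARP4 null mRNA 3 lower, LARP4 null minus wild type 4 lower. A minimum of 10 counts gave OMM 1 lower, OMM minus cytosol 2 lower. Without the replicate block, that is the pairing of pulldown and total input by lysate, the counts were OMM 0 lower, ER 0 higher and 10 lower, cytosol 0 lower, OMM minus cytosol 4 higher and 0 lower, OMM minus ER 10 higher and 0 lower, AKAP1 null mRNA 0 lower, LARP4 null mRNA 13 higher and 2 lower, AKAP1 null minus wild type 7 higher and 2 lower. Counts over all exons gave ER 0 higher, cytosol 1 higher (GTPBP3). Fits of the compared libraries alone gave AKAP1 null mRNA 2 lower, LARP4 null mRNA 12 higher and 2 lower. Reads on transcripts as library sizes, chosen after seeing the data, gave ER 14 lower, cytosol 8 higher, OMM minus cytosol 4 lower, OMM minus ER 11 higher. Without CHX, a threshold of 0.5 gave 19 members above and 3 below -0.5. Leaving out 1 replicate at a time gave OMM 0 to 1 lower, ER 0 higher, cytosol 2 lower, OMM minus cytosol 0 to 2 lower, OMM minus ER 0 to 1 lower, wild-type mRNA 4 to 5 lower, AKAP1 null mRNA 15 to 16 higher, AKAP1 null mRNA 0 lower, LARP4 null mRNA 13 to 21 higher, AKAP1 null minus wild type 8 to 15 higher, AKAP1 null minus wild type 1 to 2 lower, LARP4 null minus wild type 0 to 7 higher, LARP4 null minus wild type 0 to 4 lower. At the ER, values below 0 became positive under TMM for PUS1 (0.0064), SLIRP (0.21), TRMT5 (0.40), METTL17 (0.45), GTPBP3 (0.19), MTERF4 (0.20), PNPT1 (0.087), TRMU (0.14), TRMT10C (0.57), MTO1 (0.51), SSBP1 (0.21), MTERF1 (0.029), MTERF3 (0.062), and under DESeq2 for SLIRP (0.17), TRMT5 (0.37), METTL17 (0.41), GTPBP3 (0.15), MTERF4 (0.16), PNPT1 (0.047), TRMU (0.098), TRMT10C (0.53), SSBP1 (0.18), MTERF3 (0.025), and with reads on transcripts for TRMT5 (0.040). In wild-type mRNA PUS1 (0.28), TRMT10C (0.29) turned positive under TMM and TRMT10C (0.29) under DESeq2. Over all exons POLG (1.30), GTPBP3 (0.45) at the OMM, POLG (1.42) for OMM minus cytosol and SLIRP (0.037) in the cytosol turned positive. A change of sign was counted where either value was called. Of 3245 values for single genes recomputed under an alternative, 2823 kept their direction and side of the threshold, 305 lost and 86 gained a call, and 31 changed sign. The replicate numbers shared by genotypes pair no lysates by the labels, with 2 numbers only. Total inputs with the same number correlated at 0.205 (AKAP1 null) and 0.325 (LARP4 null) in their deviations, and a replicate block across genotypes gave 0 member calls in either total input comparison, as without it. Depth is lowest for the OMM values, where the mito pulldowns held 1025114 and 2506515 coding footprints, and 2 lysates a group set the precision throughout.

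Over all genes tested, and leaving aside the comparisons of total inputs, counts of calls that moved by over 1.5 times across settings were OMM higher 1144, against 1742 with TMM, 514 with no replicate block, then OMM lower 3094, against 1646 with TMM, 1268 with DESeq2, 1010 with no replicate block, then ER higher 1469, against 2228 with a minimum of 10 counts, then ER lower 5322, against 1876 with TMM, 1566 with DESeq2, 3177 with no replicate block. Further such counts were cytosol higher 146, against 81 with DESeq2, 0 with no replicate block, 321 over all exons, 39 in the compared libraries alone, 2388 with reads on transcripts, then cytosol lower 427, against 263 with DESeq2, 29 with no replicate block, 253 with reads on transcripts, then OMM minus cytosol higher 1070, against 199 with no replicate block, then OMM minus cytosol lower 2572, against 1347 with TMM, 1020 with DESeq2, 55 with no replicate block. Further such counts were OMM minus ER higher 2075, against 949 with TMM, 914 with DESeq2, 507 with no replicate block, 966 with reads on transcripts, then OMM minus ER lower 1241, against 1887 with a minimum of 10 counts, then wild-type mRNA higher 2803, against 4296 with TMM, then wild-type mRNA lower 6324, against 3847 with TMM, 3690 with DESeq2, 4199 with no replicate block. Further such counts were AKAP1 null mRNA higher 1930, against 632 with no replicate block, then AKAP1 null mRNA lower 3892, against 2508 with DESeq2, 1566 with no replicate block, then LARP4 null mRNA higher 3161, against 1576 with no replicate block, 1619 in the compared libraries alone, then LARP4 null mRNA lower 4151, against 2091 with no replicate block, 2223 in the compared libraries alone. Further such counts were AKAP1 null minus wild type higher 903, against 285 with TMM, 368 with DESeq2, 98 with no replicate block, 4529 in the compared libraries alone, then AKAP1 null minus wild type lower 1103, against 331 with no replicate block, 1934 in the compared libraries alone, then LARP4 null minus wild type higher 0, against 4 with DESeq2, then LARP4 null minus wild type lower 0, against 503 with DESeq2. Leaving out 1 replicate at a time moved these all-gene counts as far in at least 1 fit, with ranges of OMM lower 1803 to 2448, cytosol higher 227 to 276, OMM minus cytosol lower 1630 to 2672, OMM minus ER higher 1263 to 1668, wild-type mRNA higher 1703 to 1863, wild-type mRNA lower 3617 to 4282, AKAP1 null mRNA higher 483 to 516, AKAP1 null mRNA lower 803 to 1207, AKAP1 null minus wild type higher 121 to 208, AKAP1 null minus wild type lower 358 to 537, LARP4 null minus wild type higher 0 to 4521, LARP4 null minus wild type lower 0 to 1143, and the count of 4521 came without LARP4 null replicate 1.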
